A study of Homo sapiens with 15 samples.

Results

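The comparison is of OCI-AML5 cells exposed to ARV-825, a degrader of BET proteins, with untreated OCI-AML5 cells. It rests on 6 of the 15 RNA sequencing libraries of the series, 3 treated and 3 control, and on all 19604 protein-coding genes listed for them. OCI-AML5 is an established acute myeloid leukaemia line that depends on the cytokine GM-CSF, and cells of both groups grew in Alpha MEM. The medium held GM-CSF at 10 ng/mL and FBS at 20%. Treated cells received 1000 nM ARV-825 for 4 h. The control label says only that these cells had no treatment, and no solvent is named, so drug and solvent cannot be told apart. All libraries come from this 1 line. The 3 libraries of cells given 1000 nM OTX015 for 4 h, a BET inhibitor, shared the model fit and served for 1 direct contrast with ARV-825. The 3 libraries of cells carrying a non-targeting shRNA (shNT) for 72 h gave a baseline level for each gene that is independent of the control libraries.

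BET proteins, among them BRD2 and BRD3, bind acetylated lysines of histones through their bromodomains. They help to bring P-TEFb, the kinase that releases paused RNA polymerase II, and the Mediator complex to promoters and enhancers. ARV-825 joins a BET bromodomain ligand derived from OTX015 to a ligand of cereblon, the substrate receptor of an E3 ubiquitin ligase, so that BET proteins are ubiquitylated and destroyed by the proteasome. The level of a transcript a few hours later depends on both its synthesis and its decay.

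The deposited values were taken to be FPKM, fragments scaled to transcript length and library size, which the authors quantile normalized. They cannot show whether cells held more or less RNA in total, and library depth is unknown. The sum of FPKM was 619853 to 631061 in the control libraries and 596347 to 610789 in the ARV-825 libraries. Correlations of log2 values between libraries of a group were 0.996 to 0.997 for control. They were 0.978 and 0.979 between ARV-825 replicate 1 and the other two, and 0.991 between replicates 2 and 3. Replicate 1 also lists 6 of the 13 mitochondrially encoded genes at 0, which no other library does, so an exact 0 can be a failed estimate. Results that move without that library are given with and without it. Of 11 myeloid markers, 9 had a control mean of at least 1 FPKM, led by LYZ, SPI1 and PTPRC. The other marker lists were low. At that level were 0 of 13 erythroid and 0 of 12 epithelial and fibroblast genes. So were 1 of 7 B cell and 2 of 11 T and NK cell genes. In the megakaryocyte list of 9 genes only ITGA2B reached 1 FPKM in control, averaging 1.59 FPKM. GP1BA averaged 0.51 FPKM in control and 1.87 FPKM after ARV-825. The summed T and NK list, nearly all of it NKG7, was 35.0 to 36.9 FPKM in control and 49.4 to 50.7 FPKM after ARV-825. The summed megakaryocyte list went from 2.55 to 3.99 FPKM to 5.13 to 6.63 FPKM, and the summed myeloid list from 965 to 1036 FPKM to 675 to 709 FPKM. The part of these shifts in the results below was not tested.

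Most expressed genes differed after 4 h, and nearly as many rose as fell. Of 10819 genes averaging 1 FPKM or more across the 9 drug and control libraries, 8025 (74.2%) passed the threshold of an adjusted p of 0.05 (limma on log2 of FPKM + 1, Benjamini-Hochberg adjustment). Up were 3869 genes (35.8%) and down were 4156 (38.4%). Falls were more often large, with 883 genes (8.16%) at least 2-fold lower and 476 genes (4.4%) at least 2-fold higher. The 3 ARV-825 libraries lay wholly above the 3 control libraries for 36.8% of the genes tested and wholly below for 39.3%. The median log2 change of all genes tested was -0.01 and the median absolute change 0.39. Since about 3 in 4 genes passed, each class of genes below was read against these shares. The p-values measure the spread between libraries that the series calls biologic triplicates, with no day or batch named.

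The balance of rises and falls shifted with the baseline level of a gene. Among 1914 genes with 5 to 10 FPKM in the shNT libraries, 40.1% rose and 34.7% fell. Among 1766 genes with 25 to 50 FPKM, 30.6% rose and 46.5% fell, and among 501 genes with 100 to 250 FPKM the shares were 24% and 47.7%. Rises of at least 2-fold thinned out from 7.02% of genes at 2 to 5 FPKM to 0.963% at 25 to 50 FPKM and 0.998% at 100 to 250 FPKM. Falls of that size stayed between 6.10% and 10.3% over the same range. At 250 FPKM or more they were 2.24% and rises 0.373%. Median changes were small throughout, from 0.05 at 5 to 10 FPKM to -0.10 at 25 to 50 and at 100 to 250 FPKM on the log2 scale. With levels taken from the control libraries instead, 39.4% rose and 36.2% fell at 5 to 10 FPKM, and 31% rose and 46.3% fell at 25 to 50 FPKM. Below 2 FPKM only 770 of 9459 genes passed the filter on the mean, some of them only through their level after a drug, so the 52.6% of them that rose are not support for a rise of low genes.

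**Figure D1:**
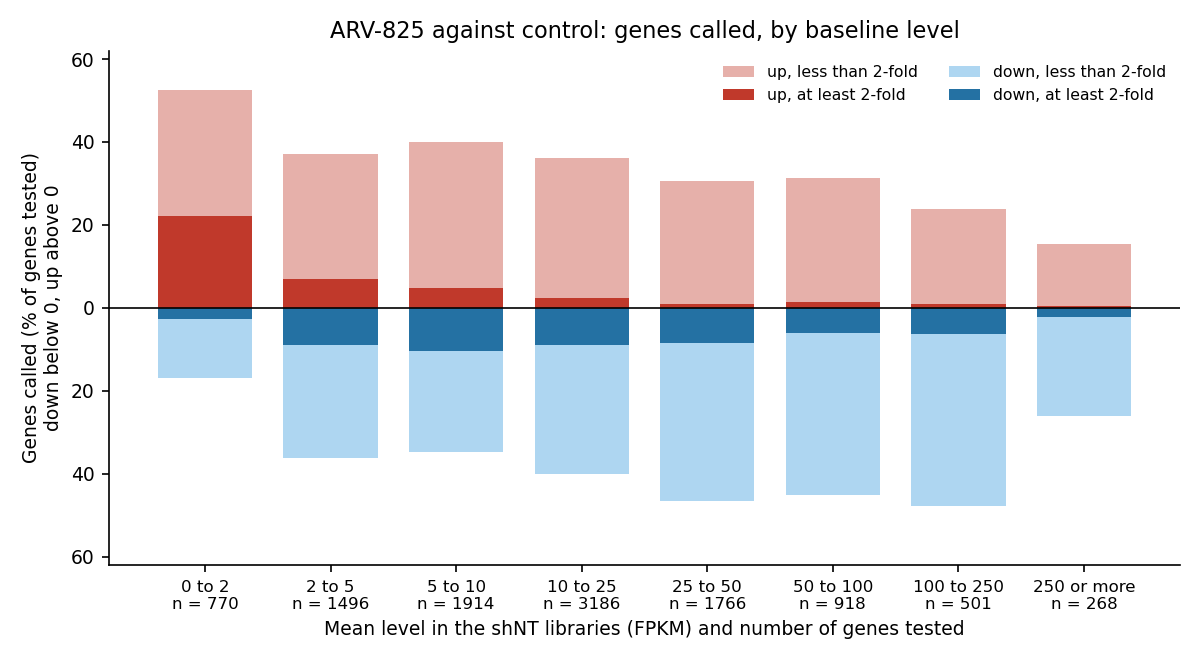
Share of tested genes called up (above 0) and down (below 0) after ARV-825, in % of the genes tested, by mean level in the shNT libraries in FPKM; dark parts are changes of at least 2-fold. The dark red part shrinks from 7.02% at 2 to 5 FPKM to 0.373% at 250 FPKM or more, while the dark blue part is 6.10% to 10.3% between 2 and 250 FPKM and 2.24% above; the first bar holds genes that could pass the filter through a rise.

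The most abundant transcripts moved least. Of the 100 genes with the highest control level outside the mitochondrial genome, 73 encode cytosolic ribosomal proteins, and together the 100 held 36.6% of the summed FPKM. Among them 11 rose, 7 fell and 82 did not pass, with none changed 2-fold. The 268 genes at 250 FPKM or more had a median change of 0.01, and 0.11, -0.05 and -0.04 in ARV-825 replicates 1, 2 and 3. With 1 library left out, 11.2% to 17.2% of these 268 genes rose and 22.4% to 35.1% fell. Their median SE was 0.065, against 0.048 for genes at 100 to 250 FPKM, so the calls at the 2 levels are not equally precise. The serglycin gene SRGN, which encodes the core proteoglycan of myeloid granules, had 1912, 1753 and 1681 FPKM in control and 1173, 1135 and 1213 FPKM after ARV-825. The groups did not overlap, with a log2 change of -0.60 (SE 0.07, adjusted p = 1.0e-05). TMSB4X, encoding the actin-sequestering thymosin beta 4, fell from 2583 to 2961 FPKM to 1768 to 1958 FPKM. HNRNPA1, for a splicing regulator, fell by 0.34 on the log2 scale. ACTB, for beta-actin, had 4282, 4585 and 4585 FPKM in control and 5609, 4184 and 3710 FPKM after ARV-825, and the groups overlapped (log2 change -0.02, adjusted p = 0.92). Without ARV-825 replicate 1 it passed the threshold at -0.19 (adjusted p = 0.034). FTL, the ferritin light chain, rose from 3406 to 3871 FPKM to 8977, 5004 and 5167 FPKM, with replicate 1 well above the other two. Its log2 change was 0.45 to 0.88 over the settings of the fit. Replicate 1 lists 6 mitochondrially encoded genes at 0, and 8977 FPKM was the value of 1 such gene in control replicates 1 and 3. Quantile normalization sets values by rank, and its part in the changes of the most abundant genes was not tested.

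A small group of expressed genes was nearly silent after 4 h. Of 8046 genes at 5 FPKM or more in all 3 control libraries, 20 were under 1 FPKM in all 3 ARV-825 libraries. They included the chemokine receptor gene CCR2, the oxysterol receptor gene GPR183, the secreted factors STC2, IL16 and NOG, the feedback inhibitor of growth factor signalling SPRY1 and the pseudokinase gene TRIB3. They also included CIITA, the master regulator of MHC class II transcription, and the transcription factors HOXB6 and ERG. STC2, encoding the secreted glycoprotein stanniocalcin 2, had 10.6, 10.4 and 10.2 FPKM in control and 0.251, 0.180 and 0.269 FPKM after ARV-825. NOG, which encodes the BMP antagonist noggin, had 7.58, 7.56 and 8.09 FPKM against 0.309, 0.282 and 0.530 FPKM. In STC2 and NOG every treated library was below every control library by more than 10-fold.

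The reverse was seen in 15 genes, from under 1 FPKM in all control libraries to 5 FPKM or more in all ARV-825 libraries, and 7 of them are histone genes. The other 8 were KIAA1683, OR2B6, LSMEM1, SERPINI1, TG, AVIL, MAPK13 and CTSK. KIAA1683 had 0.0979, 0.146 and 0.146 FPKM in control and 10.2, 10.9 and 8.94 FPKM after ARV-825. MAPK13, encoding the p38 delta kinase, averaged 0.42 FPKM in control and 6.04 FPKM after ARV-825. TG lies across SLA and AVIL across TSFM on the opposite strand. LSMEM1 overlaps IFRD1 on the same strand. The strand of the libraries is not stated, so reads of such pairs cannot be told apart. SLA itself fell from 49.2 to 51.3 FPKM to 4.87 to 5.84 FPKM.

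**Figure D2:**
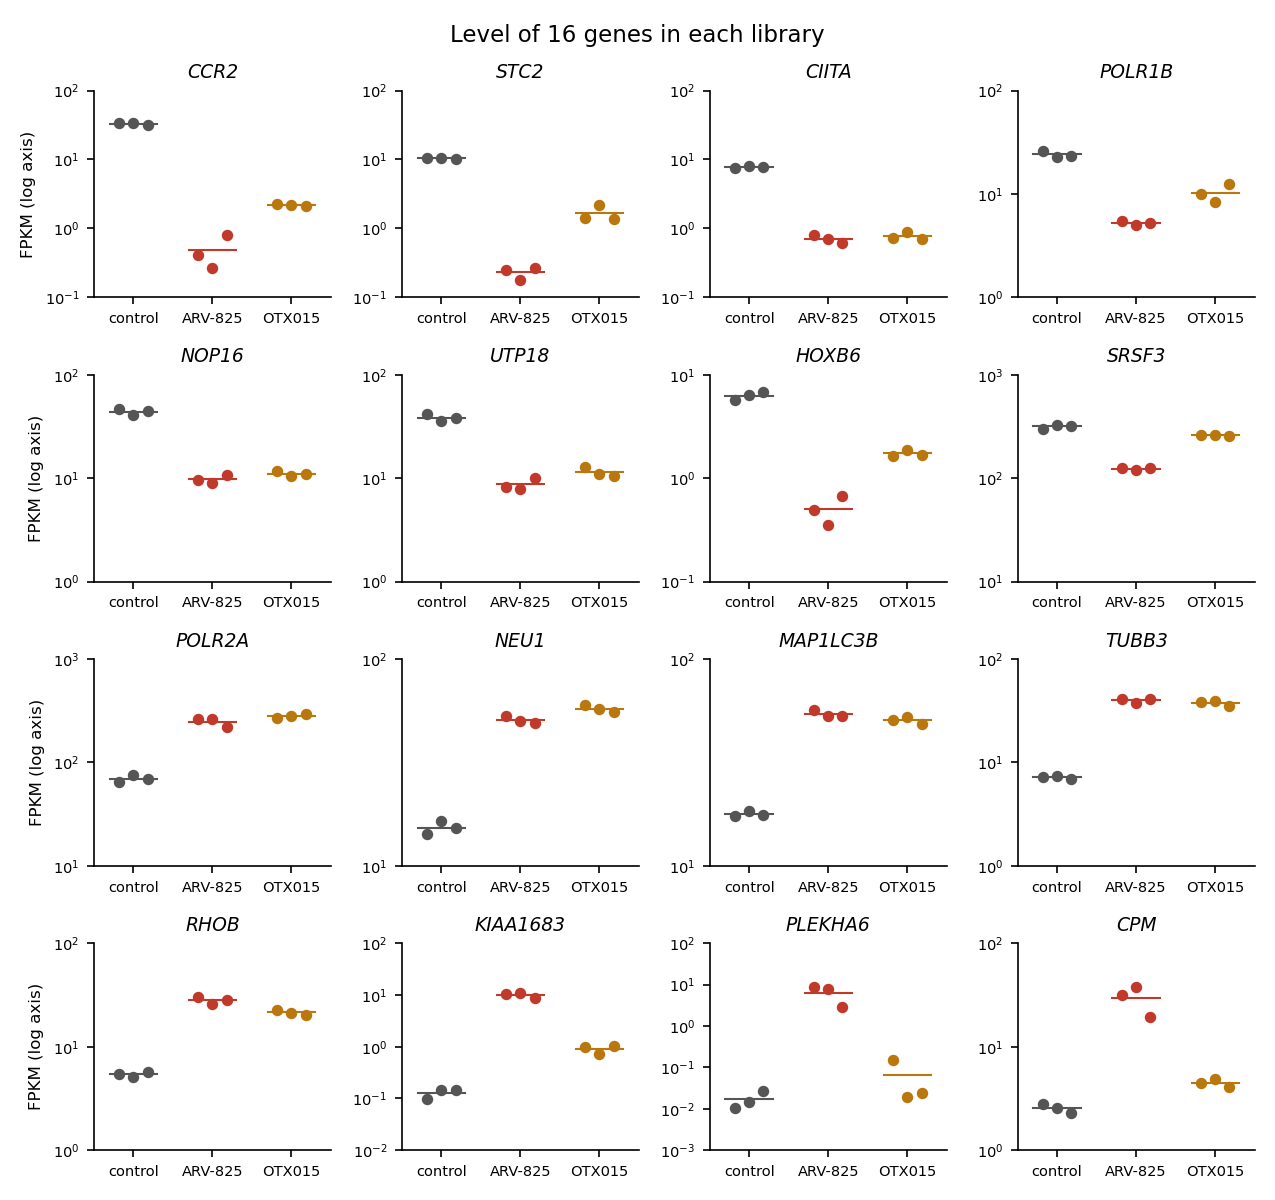
FPKM of 16 genes in each of the 9 libraries (points, 3 per group) with the group mean (line), on log axes that differ between panels. Control and ARV-825 points do not overlap in any panel; CCR2, STC2, CIITA and HOXB6 are under 1 FPKM in all ARV-825 libraries, and KIAA1683 is at 8.94 to 10.9 FPKM there.

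Subunits specific to RNA polymerases I and III mostly fell, and more subunits counted with RNA polymerase II rose than fell. Of 17 subunits specific to RNA polymerases I and III, which make ribosomal and transfer RNA, 13 fell and 0 rose, with a median log2 change of -0.68. POLR1B, the second-largest subunit of polymerase I, had 26.1, 23 and 23.4 FPKM in control and 5.53, 5.01 and 5.19 FPKM after ARV-825, a log2 change of -2.01 (SE 0.11, adjusted p = 5.1e-08). POLR3D and CD3EAP, subunits of polymerases III and I, fell by 1.07 and 1.02 on the log2 scale. Some subunits counted with RNA polymerase II, POLR2L among them, are shared with polymerases I and III. Of 13 subunits of RNA polymerase II, 7 rose and 3 fell, with a median of 0.20. Its largest subunit, POLR2A, had 64.1, 76.3 and 69.3 FPKM in control and 261, 262 and 221 FPKM after ARV-825 (log2 change 1.81, SE 0.08, adjusted p = 9.2e-09). POLR2L rose by 0.74, but it overlaps CD151 on the other strand, and POLR2M fell by 0.60 on the log2 scale.

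Factors that act on polymerase II after initiation moved both ways. Of 39 elongation factors, 20 rose and 12 fell. ELL2, a subunit of the super elongation complex, had 2.17, 2.82 and 2.70 FPKM in control and 8.53, 8.25 and 8.21 FPKM after ARV-825. AFF4, the scaffold of that complex, rose by 0.82 on the log2 scale. NELFA, of the negative elongation factor that holds paused polymerase, fell from 19.2 to 19.9 FPKM to 8.59 to 9.11 FPKM. LARP7, which holds the 7SK RNA that keeps P-TEFb inactive, fell by 0.82. Of 14 subunits of Integrator, the complex that cleaves nascent RNA of paused polymerase, 9 fell and 3 rose, with a median of -0.45. INTS3 went from 18.7, 20.3 and 18.9 FPKM to 8.33, 8.79 and 9.26 FPKM, while INTS1 rose by 0.48. Of 32 Mediator subunits 12 rose and 12 fell, from MED11 at -1.28 to MED19 at 1.22. MED11 overlaps CXCL16 on the opposite strand. The BET gene BRD2 rose by 1.20 to 1.34 on the log2 scale over the 13 settings of the fit. It overlaps HLA-DMA on the opposite strand. The BET gene BRD3 was at a log2 change of 0.16 (adjusted p = 0.074), and at 0.25 (adjusted p = 0.0036) without ARV-825 replicate 3. The E3 receptor gene CRBN was at -0.11 (adjusted p = 0.22). Of all 36 bromodomain proteins tested, 16 fell and 9 rose. ZMYND8, a reader of acetylated and methylated histones, fell from 8.35 to 8.65 FPKM to 1.39 to 1.92 FPKM.

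Ribosome assembly was the class in which the members moved most uniformly downward. The class holds nucleolar processing, modification and export factors of the ribosomal subunits, and many are known MYC targets. All 74 members passed the filter on low values. Down were 64, up were 2 and 8 did not pass, and 25 were at least 2-fold lower, with a median log2 change of -0.73. The medians in the 3 ARV-825 libraries were -0.75, -0.72 and -0.73. NOP16, a nucleolar factor of the large subunit, had 46.2, 40.6 and 44.2 FPKM in control and 9.63, 8.96 and 10.7 FPKM after ARV-825 (log2 change -2.05, SE 0.07, adjusted p = 2.5e-09). UTP18, of the small subunit processome, had 41.9, 35.9 and 38.1 FPKM against 8.26, 7.94 and 10.1 FPKM. RRS1, which brings the 5S ribonucleoprotein into the large subunit, fell by 2.36 on the log2 scale. The 2 that rose were RIOK2, a kinase of late small subunit maturation, and RRN3, which recruits polymerase I to its promoter. RIOK2 had 12.9, 18 and 19.2 FPKM against 29.7, 20.8 and 22.5 FPKM, and RRN3 rose by 0.27.

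The letters CACGTG, the E-box that MYC with MAX and several other factors can bind, were searched around the start sites of these genes because so many of them fell. RefSeq windows on GRCh38.p14, from 250 bases before to 50 bases after the first listed start, were matched to 8892 of the 10819 genes tested (82.2%). CACGTG reads the same on both strands. It occurred in 24 of 62 ribosome assembly genes (38.7%), in 10.6% of all matched genes tested and in 7.43% of all 27305 genes of the RefSeq table. The difference lay mostly after the start: 17 of the 62 (27.4%) had it in the first 50 transcribed bases, against 1.27% of all matched genes tested, while 8 (12.9%) had it in the 250 bases before the start, against 9.33%. Of the 24 with the motif 23 fell, with a median of -0.84. Of the 38 without it 31 fell, with a median of -0.68. Outside this and the lysosomal class the median was -0.06 for 915 genes with the motif and 0.01 for 7883 without. Genes on some chromosomes were left out of the printed sites whatever their change. Shown are the 6 ribosome assembly genes with the largest falls among the rest with the motif at least 10 bases inside the window. The sites let the position and flanks be compared. Each line has 26 bases on the strand of the gene, with CACGTG in capitals.
UTP18: gagtgctggtCACGTGgcaagaggct
WDR43: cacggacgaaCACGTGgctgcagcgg
LTV1: cctggggctgCACGTGtggtgaggcc
MRTO4: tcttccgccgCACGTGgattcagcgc
UTP20: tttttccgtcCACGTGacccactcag
MYBBP1A: ggccggagcaCACGTGtttcgtgttt
On GRCh38.p14 these are chr17:51260447-51260472 (plus strand), chr2:28894660-28894685 (plus), chr6:143843356-143843381 (plus), chr1:19251809-19251834 (plus), chr12:101280085-101280110 (plus) and chr17:4555342-4555367 (minus), in the order shown. The motif of UTP18 starts 89 bases and that of UTP20 10 bases before the start site. Those of WDR43, LTV1, MRTO4 and MYBBP1A begin at transcribed bases 4, 29, 15 and 28. The log2 changes of the 6 genes ran from -2.02 for UTP18 to -1.18 for MYBBP1A. WDR43, a small subunit processome factor, went from 36.7, 42.6 and 46.3 FPKM to 12.4, 9.97 and 11 FPKM. LTV1, which helps to export the small subunit, went from 26.8 to 31.4 FPKM to 6.85 to 9.24 FPKM. A match is a description of these letters and not of binding.

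The ribosomal proteins themselves did not follow their assembly factors. Of 82 cytosolic ribosomal proteins tested 74 did not pass, 6 rose and 2 fell, and none changed 2-fold. Their median was 0.06, with 0.15 in ARV-825 replicate 1 and 0.00 and 0.01 in replicates 2 and 3. Without replicate 1, 5 rose and 7 fell with a median of 0.00, and leaving out other libraries in turn also moved these counts, between 3 and 9 up and 1 and 7 down over all settings. RPL12, of the large subunit stalk base, had 1882 FPKM in every control library and 2531, 2192 and 2217 FPKM after ARV-825, a log2 change of 0.29. The 77 mitochondrial ribosomal proteins differed from that pattern, with 52 down, 9 up and a median of -0.34. MRPL3 had 98.7, 89.8 and 91.0 FPKM in control and 38.8, 37.7 and 41.2 FPKM after ARV-825 (log2 change -1.23, SE 0.05, adjusted p = 5.1e-09). MRPL27 fell by 1.43, while MRPL10 rose by 0.73.

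Other parts of the translation apparatus fell less. Of 39 aminoacyl-tRNA synthetases, which charge transfer RNAs, 27 fell and 3 rose, with a median of -0.31. FARSA, the catalytic subunit of the phenylalanine enzyme, went from 134, 128 and 135 FPKM to 56.7, 55.3 and 55.2 FPKM. YARS2, the mitochondrial tyrosine enzyme, fell by 1.33. Of 53 initiation factors 25 fell (47.2%, against 38.4% of all genes tested) and 14 rose, none 2-fold. The 4E-binding proteins, which block cap-dependent initiation, split: EIF4EBP1 fell by 0.85 and EIF4EBP2 rose by 0.98 on the log2 scale. EIF5, the GTPase activator of the initiating ribosome, rose from 105 to 111 FPKM to 198 to 222 FPKM. Of 14 tested subunits of the CCT chaperonin and prefoldin, which fold actin and tubulin, 9 fell and 0 rose. CCT5 had 345 to 365 FPKM in control and 200 to 210 FPKM after ARV-825.

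**Figure D3:**
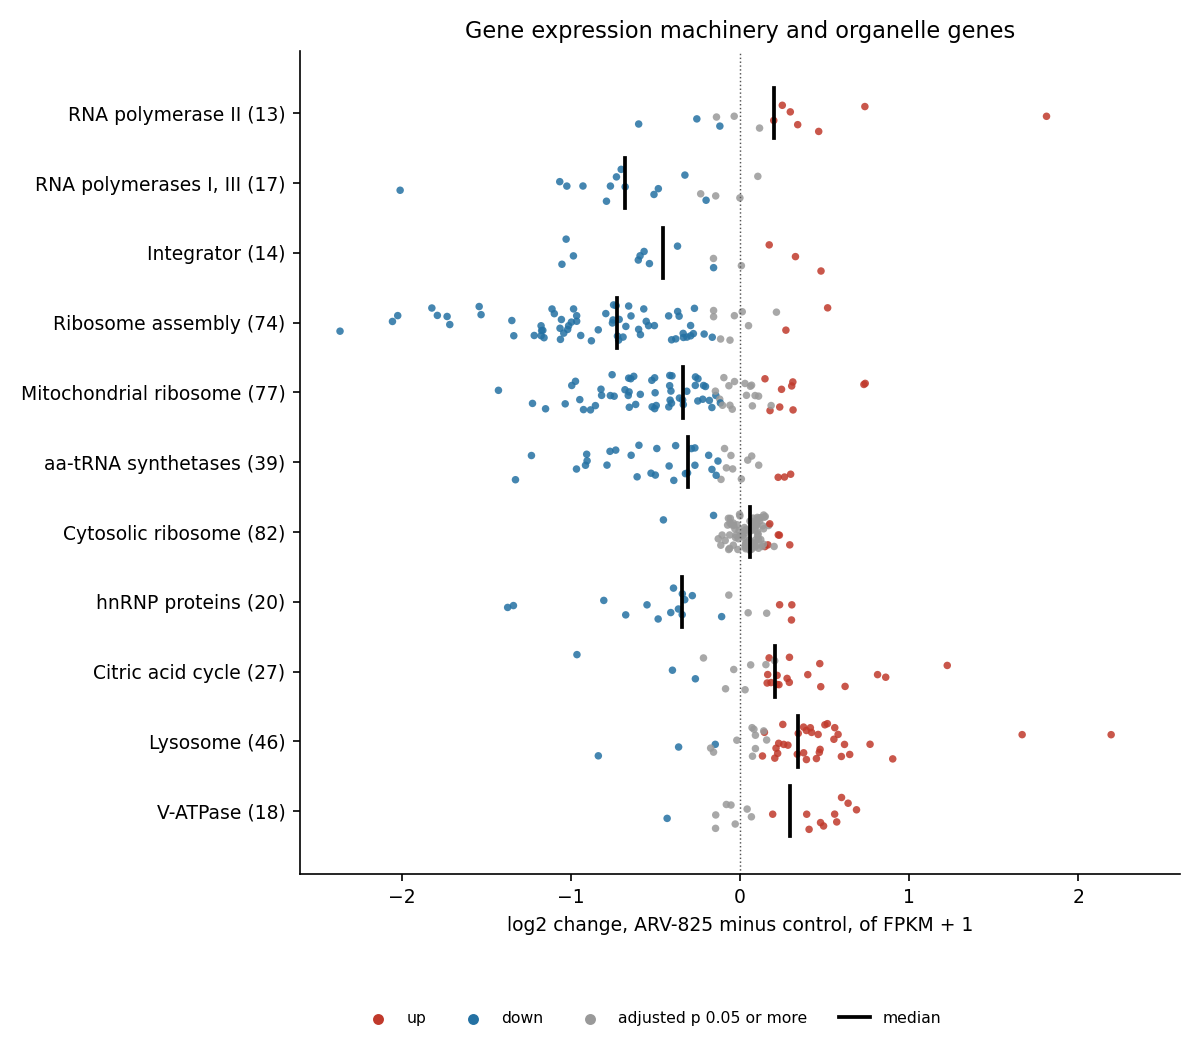
Change of each tested member (points, number in brackets) of 11 classes, as log2 of FPKM + 1, ARV-825 minus control; red and blue points passed an adjusted p of 0.05, grey points did not, and black bars are medians. Ribosome assembly has 64 blue points of 74, cytosolic ribosomal proteins 74 grey points of 82, and the lysosome 33 red points of 46.

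Several classes of RNA processing genes fell more often than they rose, but of 22 cleavage and polyadenylation factors 9 rose and 9 fell. Of 20 hnRNP proteins, abundant binders of nascent transcripts, 14 fell and 3 rose, with a median of -0.34. HNRNPD, which binds AU-rich elements of unstable mRNAs, went from 361, 411 and 405 FPKM to 154, 146 and 152 FPKM (log2 change -1.37, SE 0.05, adjusted p = 4.9e-09). Its relative HNRNPDL fell by 1.34. Of 3 that rose, HNRNPH1 lost its call without either of ARV-825 replicates 1 and 2 or control replicates 2 and 3. Among 14 SR splicing factors 7 fell and 5 rose. SRSF3 went from 300, 329 and 321 FPKM to 126, 119 and 127 FPKM, and SRSF7 fell by 1.33. TRA2A and TRA2B, which activate exon inclusion, rose by 0.69 and 0.50, and SRSF12 rose from 0.210 to 0.363 FPKM to 3.18 to 5.45 FPKM. Core spliceosomal proteins changed little, with 21 of 51 down (41.2%, against 38.4% of all genes tested), 13 up and none 2-fold. Of 53 DEAD and DEAH box helicases, which remodel RNA, 31 fell and 6 rose, led by DHX33, a nucleolar helicase, at -1.53.

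Falls outnumbered rises in several groups of chromatin regulators, with exceptions in each. Over all genes tested 38.4% fell and 35.8% rose. Of 33 Polycomb proteins, which maintain silent genes, 18 fell and 9 rose, with a median of -0.32. CBX6, a Polycomb chromodomain protein, went from 32.0, 34.1 and 32.7 FPKM to 10.4, 11 and 11 FPKM, while RYBP, of variant Polycomb complex PRC1, rose from 4.03 to 4.55 FPKM to 10.7 to 11.8 FPKM. Of 26 SWI/SNF subunits, remodellers of nucleosomes, 14 fell and 8 rose. ARID2, a subunit of the PBAF form, fell by 1.03 and SS18L1, a neuronal subunit, rose by 1.25. Of 27 lysine methyltransferases 13 fell (48.1%) and 5 rose, with a median of -0.11. SETDB1, which makes H3K9 trimethylation, had 26.1, 26 and 25.6 FPKM in control and 8.48, 8.48 and 8.79 FPKM after ARV-825 (log2 change -1.49, SE 0.05, adjusted p = 2.5e-09). Acetylation enzymes did not share this, with 8 up and 7 down of 24 acetyltransferases and 8 up and 5 down of 16 deacetylases and sirtuins. Of 23 lysine demethylases 10 fell and 7 rose, with a median of 0.02, from PHF2 at -1.53 to KDM4B at 1.12. Both of these remove methyl groups from H3K9, and all 3 treated libraries lay outside the control range for each.

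Transcription factor families with myeloid and leukaemia roles lost more members than they gained. Of 11 HOX, MEIS and PBX factors tested, which govern progenitor self-renewal, 7 fell and 1 rose, with a median of -0.66. HOXB6 had 5.67, 6.34 and 6.85 FPKM in control and 0.491, 0.352 and 0.678 FPKM after ARV-825, and HOXA10 fell by 1.5. HOXB3 rose by 0.43, and it overlaps HOXB4, HOXB5 and HOXB6 on the same strand. HOXA10 likewise overlaps HOXA9 and the entry HOXA10-HOXA9 on the same strand. Of 16 ETS factors 8 fell (50%, against 38.4% of all genes tested) and 2 rose. ERG, a stem cell and leukaemia factor, had 6.06, 6.04 and 6.54 FPKM against 0.454, 0.555 and 0.652 FPKM. Of the 2 that rose, ETV3 was at 0.75, and ETV5 lost its call without control replicate 1 (adjusted p = 0.095), which left ETV3 alone. Of 17 nuclear receptors 11 fell and 3 rose. THRA, a thyroid hormone receptor, went from 6 to 6.30 FPKM to 1.39 to 1.57 FPKM, and it overlaps MED24 and NR1D1 on the other strand.

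The bZIP factors split evenly in number but not in size, with 15 up and 17 down, 2 of them at least 2-fold up and 11 at least 2-fold down. CEBPE, which drives late granulocyte maturation, went from 14.7, 16.5 and 16.9 FPKM to 2.4, 2.37 and 2.89 FPKM. FOSL1, a partner of JUN, went from 4.85 to 5.31 FPKM to 0.386 to 0.604 FPKM. JUND rose by 1.38 and CREM, a cAMP-responsive factor, by 1.4. Of 13 KLF and SP factors 5 rose and 6 fell, with KLF6 at 1.45 and KLF13 at -1.09. Zinc finger proteins named ZNF, the most numerous family, were near balance. Of 389 tested 167 rose and 143 fell, and 26 and 24 of them by at least 2-fold.

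Genes of lysosomes and of their acidification rose. Of 46 lysosomal enzymes and membrane proteins 33 rose and 3 fell, with a median of 0.34, and without ARV-825 replicate 1 the counts were again 33 and 3. NEU1, a lysosomal sialidase, had 14.2, 16.5 and 15.2 FPKM in control and 52.9, 50.1 and 49.1 FPKM after ARV-825 (log2 change 1.67, SE 0.06, adjusted p = 2.2e-09). NPC2, which carries cholesterol out of lysosomes, went from 37.0, 38.2 and 37.9 FPKM to 72.2, 70.0 and 71.8 FPKM. CTSK, a collagen-degrading cathepsin, rose from under 1 FPKM to 6.63 to 7.45 FPKM. TFEB, a transcription factor that activates lysosomal genes, fell from 3.33 to 4.33 FPKM to 1.51 to 1.85 FPKM. Of 18 subunits of the V-ATPase proton pump 10 rose and 1 fell, with ATP6V1A at 0.69, and without ARV-825 replicate 3 it was 10 and 2. Of 32 autophagy genes 17 rose and 5 fell. MAP1LC3B, whose product coats autophagosome membranes, went from 17.5, 18.4 and 17.7 FPKM to 56.4, 52.9 and 52.8 FPKM, while ATG4C, for a protease that processes such coat proteins, fell by 1.01.

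The E-box was also more frequent in the matched lysosomal promoters, though on few genes, and all matches lay before the start. Of 46 lysosomal genes tested 32 were matched, and 7 of these (21.9%) held CACGTG, against 10.6% of all matched genes tested. This difference was not tested. The motif lay in the 250 bases upstream in 7 of them and in the 50 bases after the start in 0. Of the 7, 5 rose and 0 fell, and of the 25 without the motif 17 rose and 3 fell. The same letters were thus present in genes of a class that fell and of a class that rose. Sites of the 4 lysosomal genes with the largest rises, by the same rule of position and chromosome, are given for comparison.
NEU1: gctgcgtgatCACGTGggaggagatg
MCOLN1: cagaggcggtCACGTGaggggctctg
GAA: gaggccgcgtCACGTGacccaccgcg
LAMP1: caggccgggtCACGTGggtccagggt
They are at chr6:31862932-31862957 (minus strand), chr19:7522573-7522598 (plus), chr17:80101495-80101520 (plus) and chr13:113297037-113297062 (plus) of GRCh38.p14, with the motif 126, 41, 76 and 192 bases before the start. MCOLN1 is a lysosomal calcium channel, GAA digests glycogen, and LAMP1 is a major glycoprotein of the lysosomal membrane. LAMP1 had 101, 109 and 107 FPKM in control and 139, 135 and 138 FPKM after ARV-825, and the groups did not overlap.

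Among metabolic genes, those of the citric acid cycle and of cholesterol and fatty acid synthesis rose more often than they fell. Of 27 genes of the citric acid cycle and its entry 17 rose and 3 fell, with a median of 0.21. OGDH, a subunit of the 2-oxoglutarate dehydrogenase, went from 25.6, 27.2 and 26.9 FPKM to 65.7, 63.8 and 60.9 FPKM (log2 change 1.23, SE 0.04, adjusted p = 2.2e-09), and IDH1, the cytosolic isocitrate dehydrogenase, rose by 0.86. Of 37 cholesterol and fatty acid synthesis genes 25 rose and 4 fell, with a median of 0.34, and without ARV-825 replicate 1 it was 25 and 7. IDI1, of the isoprenoid steps, went from 55.6, 49.0 and 49.1 FPKM to 122, 114 and 115 FPKM. STARD4, a sterol carrier, rose by 1.20. Of 87 nuclear-encoded respiratory chain genes 33 rose (37.9%, against 35.8% of all genes tested), 18 fell and 36 did not pass. Without control replicate 3 it was 31 and 11, and without ARV-825 replicate 2 it was 35 and 11. NDUFAF4, an assembly factor of complex I, went from 34 to 39.5 FPKM to 13.3 to 13.9 FPKM and was the 1 member changed 2-fold. Other metabolic classes were mixed. Of 36 purine and pyrimidine synthesis genes 20 fell and 13 rose, and of 168 solute carriers 69 fell and 55 rose. Among 23 serine, folate and polyamine enzymes 11 fell and 8 rose. Among 25 glycolysis genes 6 fell and 10 rose, and among 22 ABC transporters 8 fell and 10 rose. Without ARV-825 replicate 1, 9 glycolysis genes fell and 9 rose.

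Among genes of the cytoskeleton, single members stood out. Of 15 tubulins 6 rose, 4 of them at least 2-fold, and 3 fell. TUBB3, the neuronal beta-tubulin, had 7.21, 7.42 and 6.97 FPKM in control and 41.3, 37.9 and 40.8 FPKM after ARV-825 (log2 change 2.32, SE 0.05, adjusted p = 2.8e-10). TUBB4B rose from 275 to 304 FPKM to 631 to 784 FPKM, whereas TUBB, the main isotype here, fell from 762 to 906 FPKM to 589 to 715 FPKM. Tubulin genes are alike in sequence, and the sources used here do not say how reads shared between copies were counted. RHOB, an endosomal GTPase with a short-lived transcript, went from 5.46, 5.11 and 5.71 FPKM to 30.3, 26.1 and 28.1 FPKM. RHOH, a GTPase of blood cells, went from 12.1 to 13.6 FPKM to 2.31 to 3.62 FPKM.

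G protein-coupled receptors had the lowest median of the 85 classes. Of 153 listed G protein-coupled receptors 46 passed the filter on low values, and of these 33 fell, 8 rose and 24 were at least 2-fold lower, with a median log2 change of -1.08. Over all genes tested 8.16% were at least 2-fold lower. CCR2, the receptor for the monocyte chemokine CCL2, had 34.3, 33.9 and 31.3 FPKM in control and 0.415, 0.267 and 0.797 FPKM after ARV-825. PTAFR, the receptor for platelet-activating factor, had 33.3, 33.0 and 33.5 FPKM against 2.23, 1.81 and 2.23 FPKM (log2 change -3.47, SE 0.08, adjusted p = 2.8e-10). LPAR2, a receptor for lysophosphatidic acid, rose from 19.4 to 23.3 FPKM to 31.4 to 40.2 FPKM, and GPR137B rose by 0.59. None of 38 matched receptor genes held CACGTG in its promoter window, and 7 of the 38 (18.4%) held TATAAA on either strand, against 5.43% of all matched genes tested.

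Cytokines and their receptors were divided. Of 27 genes in the cytokine receptor class 14 fell and 9 rose. IL15RA, the high-affinity receptor chain for interleukin 15, went from 12.2, 12.5 and 12.4 FPKM to 1.35, 0.896 and 1.31 FPKM, and IL18RAP, of the interleukin 18 receptor, fell by 2.53. IL6ST, the shared signalling chain gp130, rose from 5.07 to 6.02 FPKM to 10.2 to 16.2 FPKM. IL1RN, the secreted interleukin 1 receptor antagonist counted in that class, went from 79.3, 74.5 and 83.9 FPKM to 7.77, 7.26 and 9.02 FPKM. Of 20 cytokines and chemokines tested 10 fell, 7 of them at least 2-fold, and 6 rose. CXCL8, the neutrophil chemokine interleukin 8, had 70.3, 56.4 and 58.2 FPKM in control and 9.07, 10.1 and 8.78 FPKM after ARV-825. TNFSF9, the ligand of the costimulatory receptor 4-1BB, rose from 11.9 to 12.7 FPKM to 29.6 to 31.7 FPKM.

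Innate sensing receptors fell as a group, and class II presentation genes did not. Of 19 Toll-like receptors and adaptors tested 14 fell and 1 rose, with a median of -0.69. Without ARV-825 replicate 1, or without replicate 2, 2 genes passed as rises. CD180, a Toll-like receptor homologue, had 24.3, 26.1 and 26.3 FPKM in control and 2.16, 2.23 and 3.13 FPKM after ARV-825, while LY86, which encodes its partner MD-1, rose by 0.29. Of 32 lectin, Siglec and LILR receptors 23 fell and 4 rose, with LGALS12, a galectin of myeloid and fat cells, at -3.24. Of 9 Fc receptors 5 fell and 3 rose. FCGR2A, the low-affinity IgG receptor, went from 411, 420 and 427 FPKM to 148, 148 and 128 FPKM. Of 10 tested genes of MHC class II presentation 7 rose and 2 fell, with a median of 0.48. The 2 that fell were CIITA, from 7.53, 8.07 and 7.87 FPKM to 0.807, 0.694 and 0.611 FPKM, and HLA-DMB, at -0.69. HLA-DPB1 rose from 17.6 to 18.7 FPKM to 27.3 to 30.8 FPKM. Reads of HLA genes can be shared between near-identical copies. In MHC class I presentation 14 of 20 rose and 4 fell, and NLRC5, the class I counterpart of CIITA, fell by 0.94. Without ARV-825 replicate 1, 11 of the class I genes rose and 4 fell. In these bulk libraries a smaller number of cells of one state and less RNA per cell cannot be told apart.

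Adhesion and granule genes went both ways. Of 13 integrins tested 7 rose and 5 fell. ITGAM and ITGAX, the alpha chains of the myeloid integrins CD11b and CD11c, rose together: ITGAM went from 8.54, 8.26 and 8.15 FPKM to 13.9, 14.4 and 14.1 FPKM. ITGAX went from 7.20 to 7.84 FPKM to 12.1 to 13.3 FPKM. ITGA4, which binds fibronectin and VCAM1, fell from 134 to 147 FPKM to 61.7 to 67.7 FPKM. Among 21 phagocyte oxidase and granule genes 9 fell and 7 rose. NCF4, a cytosolic oxidase subunit, fell by 1.15 on the log2 scale. AZU1, an azurophil granule protein, rose from 1.57 to 2.00 FPKM to 3.67 to 4.85 FPKM, and S100A9, of calprotectin, rose by 0.72.

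**Figure D4:**
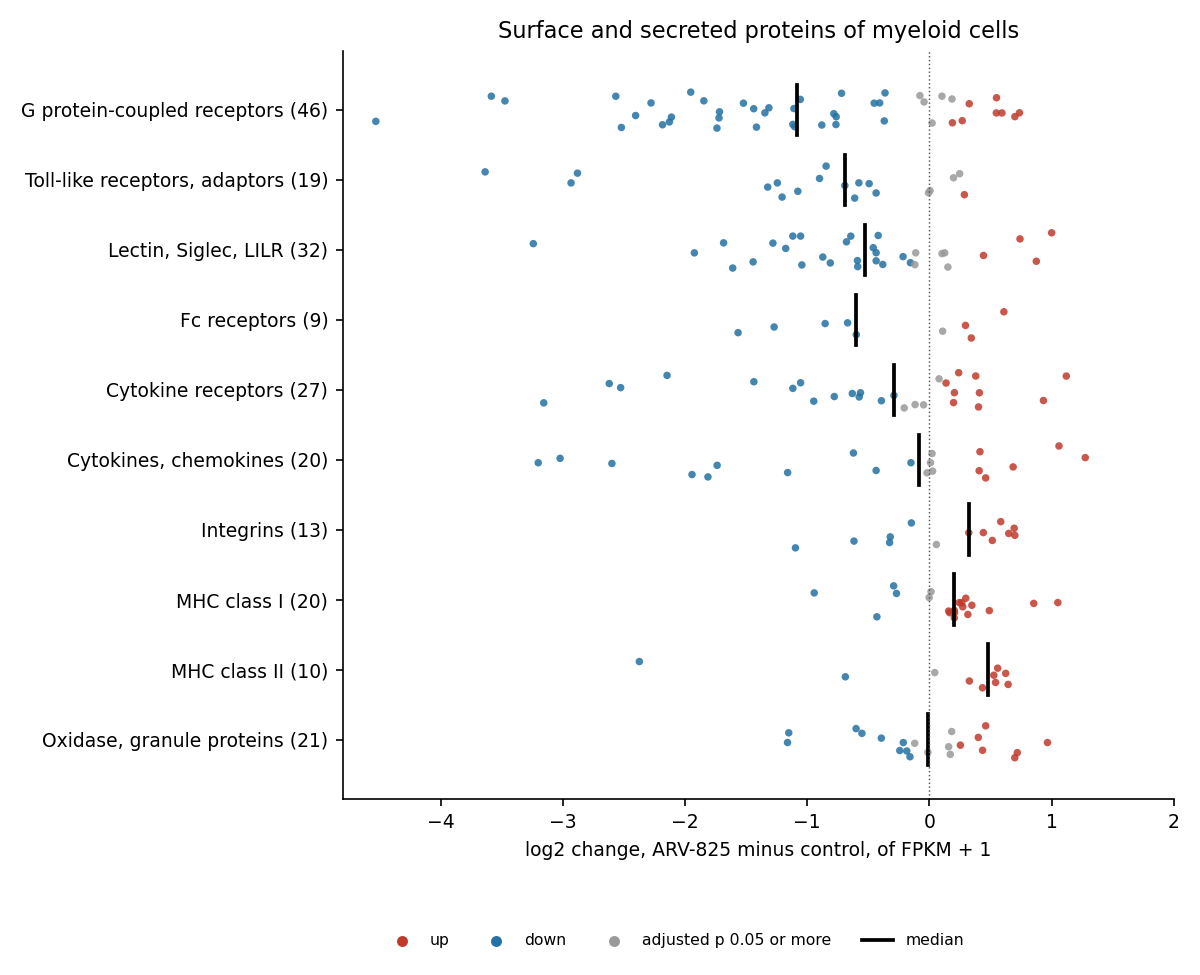
Change of each tested member (points, number in brackets) of 10 classes of surface and secreted proteins, as log2 of FPKM + 1, ARV-825 minus control; red and blue points passed an adjusted p of 0.05, grey points did not, and black bars are medians. The G protein-coupled receptors have a median of -1.08 and MHC class II genes one of 0.48, with CIITA as the lowest point of that class.

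Among genes of dual specificity phosphatases and the Sprouty family, more fell than rose. Some of these proteins restrain MAP kinase signalling, but the class was not limited to those. Of 20 genes tested, 12 fell and 3 rose. SPRY1 had 6.60, 7.26 and 7.05 FPKM in control and 0.177, 0.256 and 0.359 FPKM after ARV-825. DUSP3 went from 48.0 to 49.7 FPKM to 16.7 to 18.1 FPKM. The 3 rises were small, and DUSP1 and DUSP5 lost their calls without control replicate 1 (adjusted p = 0.14 and 0.080) and without ARV-825 replicate 3 (adjusted p = 0.15 and 0.084). DUSP1 also lost it without control replicate 3 (adjusted p = 0.087) and with a replicate block (adjusted p = 0.062). Among 14 circadian clock genes 8 fell and 5 rose, with a median of -0.32. Among the 8 of them with a mean of at least 5 FPKM 2 fell and 5 rose, with a median of 0.43, so the direction of the class depended on the filter. Single values were CLOCK at -1.15 and the repressors CRY1 and CRY2 at 0.74 and 1.43. CRY2 went from 4.74, 4.99 and 5.36 FPKM to 16.2, 15.4 and 14.1 FPKM.

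Across all 85 classes, medians were below 0 in 55 and above 0 in 30, with 23 below -0.25 and 7 above 0.25. These 85 classes cover 3238 of the tested genes. The cluster histone genes, with 48 of 62 up and a median of 1.86, had the highest median, and without ARV-825 replicate 1 54 of the 62 rose. The 13 mitochondrially encoded genes had 0 calls in either direction by limma. ARV-825 replicate 1 lists 6 of them at 0, and 0 passed without that library, while 3 passed as falls without replicate 2 and 3 without replicate 3.

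Degrader and inhibitor at the same dose and time were compared directly. The control libraries did not enter the difference itself, but they shared in the estimate of the spread and in the filter on low values. ARV-825 and OTX015 differed in 6282 genes (58.1%), of which 91 (0.841%) were at least 2-fold higher and 114 (1.05%) at least 2-fold lower after ARV-825. Several classes had more members higher than lower after the degrader. Of 21 oxidase and granule genes 15 were higher and 1 lower, of 13 integrins 10 and 0, of 10 class II genes 6 and 0, and of 37 cholesterol and fatty acid genes 28 and 2. Over all genes tested 24.7% were higher and 33.4% lower. AZU1 was 1.02 higher on the log2 scale (adjusted p = 2.2e-05) and ITGAX 0.71 higher. In other classes more members were lower, with 26 of 37 bZIP factors, 24 of 36 bromodomain proteins, 16 of 24 TGF-beta and BMP pathway genes and 12 of 19 Toll-like receptor genes lower, and 4, 4, 1 and 4 higher. TGFB1, the ligand itself, had 253, 231 and 233 FPKM after ARV-825 and 498, 503 and 483 FPKM after OTX015. SRSF3 had 126, 119 and 127 FPKM against a mean of 259 FPKM after OTX015, a log2 difference of -1.06 (SE 0.05, adjusted p = 2.5e-07). Ribosome assembly factors were split, with 17 higher, 24 lower and a median difference of -0.09. A class count in this contrast has no test of its own.

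**Figure D5:**
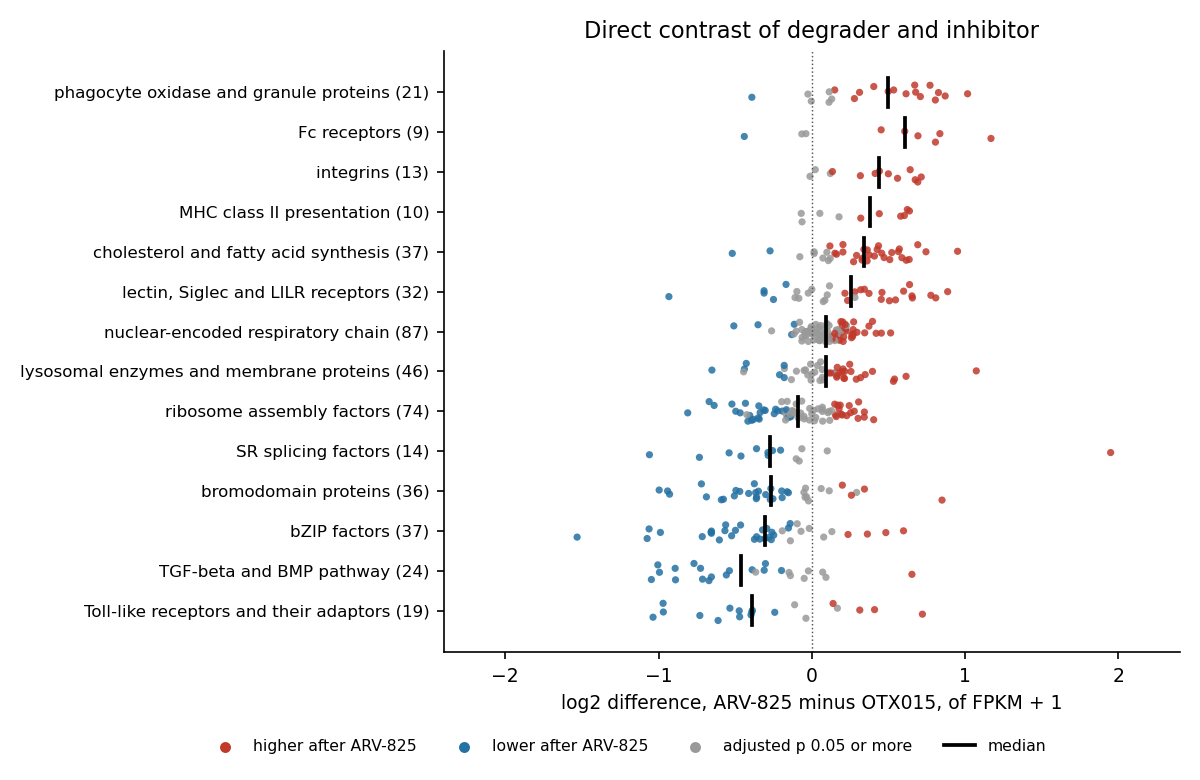
Difference of each tested member (points, number in brackets) of 14 classes between ARV-825 and OTX015, as log2 of FPKM + 1, ARV-825 minus OTX015; red and blue points passed an adjusted p of 0.05, grey points did not, and black bars are medians. Medians run from 0.61 for Fc receptors to -0.46 for the TGF-beta and BMP pathway, with ribosome assembly factors at -0.09.

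Several of the largest single differences between the compounds were of genes with low levels in the control libraries. PLEKHA6, encoding a pleckstrin homology domain protein, had 8.77, 7.63 and 2.92 FPKM after ARV-825, 0.0195 to 0.150 FPKM after OTX015 and 0.0103 to 0.0263 FPKM in control. CPM, a membrane carboxypeptidase of macrophages, had 31.3, 38.0 and 19.4 FPKM after ARV-825, 4.12 to 4.89 FPKM after OTX015 and 2.29 to 2.78 FPKM in control. CPM overlaps MDM2 on the opposite strand, and MDM2 had 302.7, 336.7 and 234.4 FPKM after ARV-825, 132 to 183 FPKM after OTX015 and 69.8 to 80.7 FPKM in control. The testis antigen gene GAGE12B was listed at 0 in all control and OTX015 libraries and at 5.56, 3.02 and 5.80 FPKM after ARV-825, and GAGE genes are near-identical copies. In the other direction IRF2BP2, a transcriptional corepressor, had 39.9, 37.9 and 41.8 FPKM after ARV-825, 154 to 173 FPKM after OTX015 and 188 to 227 FPKM in control. CD69, an early activation antigen, had 0.768, 0.481 and 1.02 FPKM after ARV-825, 6.05 to 6.30 FPKM after OTX015 and 3.18 to 4.00 FPKM in control, so that the control libraries lay between the drug groups.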

How the data were processed

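Total RNA of OCI-AML5 cells was isolated with an Ambion kit, treated with DNase and made into libraries with an Illumina kit, per the labels' protocols. Per the submitters' processing notes, the tools were TopHat2 2.0 and Cufflinks 2.0 and the build hg19. No annotation is named in the sources used here. The authors deposited 1 table of 9 drug and control libraries and 1 of 6 shRNA libraries, each with values for 19620 entries. The values were read as FPKM that the authors quantile normalized within each table, since the file names carry that abbreviation and the values are not whole, never negative and recur between libraries. The headers state no unit. Since library depth is unknown, values carry no counting interval. Left out were 16 Y copies of pseudoautosomal genes, and 28 symbols turned into dates were restored by gene ID from GENCODE 29, an annotation of another build that also gave overlaps and neighbours, with 19379 IDs matched. The sources name neither a poly(A) step nor the strand, so reads of overlapping genes cannot be told apart. Overlaps are named for some genes only. INTS3, DHX33 and TUBB3, for instance, also overlap another gene on the same strand.

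Values were analysed as log2(FPKM + 1), which understates the change of low genes. Genes averaging 1 FPKM or more across the 9 libraries were tested with limma 3.58.1 in R 4.3.3 (mean-variance trend, two-sided, 3 groups in 1 fit) with Benjamini-Hochberg adjustment over 10819 genes. The fit was tested on simulated data. The members, the 85 gene classes and the baseline bins were chosen with earlier results of these data known. Classes are described by counts and medians with no set test. Named genes were the 12 largest rises and falls, up to 3 called members in each direction of a described class, the 15 most abundant genes, genes crossing 1 and 5 FPKM, the largest differences from OTX015, and reference genes. Genes shown for a promoter site and upstream or overlapping neighbours such as JUND, SLA and MDM2 were named after their values were seen. So were GPR183, TRIB3, NKG7, LYZ, PTPRC, ITGA2B and GP1BA. Alternatives were the pseudocount, the filter on low values, rescaling to median ratios, only 6 libraries, no trend, a replicate block, the source of the baseline and each library left out.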

Additional observations from a re-analysis of the deposited data

How the results depend on the processing

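With 1 library left out 7510 to 7901 genes differed from control, after rescaling to median ratios 8065, with only the 6 control and ARV-825 libraries 7906, without a filter 9463 and with a mean of at least 5 FPKM 6221. A pseudocount of 0.1 FPKM gave 691 genes at least 2-fold higher and 1189 lower. Of 526 genes covered by the naming rule, 507 kept their call in every setting that gave them a value, which was all 13 for 419 genes and 12 for 107 genes. Of the rest, 12 lost it in some setting, 7 gained it and 0 changed direction. The median of 71 of the 85 classes kept its sign, and in 27 classes a count of rises or falls moved by over 1.5 times in some setting. Most of these were with the filter at 5 FPKM, where 27 G protein-coupled receptors (6 up, 18 down), 5 HOX, MEIS and PBX factors (1 up, 3 down), 10 nuclear receptors (1 up, 7 down) and 172 ZNF proteins (96 up, 54 down) were left. The low end of the baseline depended on the filter. With a mean of at least 5 FPKM, 529 genes were at least 2-fold lower. Below 2 FPKM the median was then 1.83, with 86.0% up and 0% down. At 2 to 5 FPKM it was 0.71 with 79.5% up and 6.94% down, at 5 to 10 FPKM 0.23 with 21.3% down, and at 10 to 25 FPKM -0.0068. Without a filter the median below 2 FPKM was -0.0023 with 18.9% up, and that at 2 to 5 FPKM -0.032. A stricter filter leaves fewer of the low genes, and those high in some drug or control library. With baselines from the control libraries the medians were 0.27 below 2 FPKM and 0.023 at 5 to 10 FPKM. With a pseudocount of 0.1 FPKM the median below 2 FPKM was 0.57, and 184 genes were at least 2-fold higher and 432 lower than after OTX015. With 1 library left out the median at 10 to 25 FPKM was -0.033 to -0.020, lowest without control replicate 1.

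The labels number replicates alike in each group, but same-numbered control and ARV-825 libraries did not deviate together (correlations -0.065, 0.022 and -0.011). With a replicate block 7771 genes differed from control and 5884 from OTX015.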

Other observations

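Genes that appeared after ARV-825 often had an expressed gene on the same strand as their nearest upstream neighbour, with no limit set on the distance. Of 74 genes outside the histone clusters that rose at least 2-fold from under 1 FPKM in all control libraries, 57 (77.0%) had their nearest upstream gene on the same strand. The share was 51.9% of 10793 tested genes with an upstream neighbour. It was 58.2% of listed genes under 1 FPKM in all control libraries and above 0 in some library. The upstream neighbours of these 57 had a median of 15.7 FPKM in control and 17.8 FPKM after ARV-825. For the 5601 tested genes with an upstream neighbour on the same strand the medians were 5.33 and 5.16 FPKM. The 74 passed the filter through their level after a drug, so these shares are descriptions. Of the 74, 36 (48.6%) overlap another gene, AVIL among them, against 36.5% of all genes tested. KIAA1683 lies downstream of JUND, which rose from 52.8 to 66.1 FPKM to 151 to 162 FPKM. PLEKHA6 lies downstream of PPP1R15B, a phosphatase cofactor of the stress response, which averaged 34.6 FPKM in control and 46.6 FPKM after ARV-825. AVIL, encoding the actin-binding protein advillin, lies downstream of CTDSP2, which fell from 55.3 to 44.3 FPKM on average. MAPK13 lies downstream of MAPK14, which fell by 0.27 on the log2 scale, and CTSK downstream of ARNT at -0.10 (adjusted p = 0.23). KIAA1683, PLEKHA6 and AVIL had at most 1.07 FPKM in every OTX015 library. JUND and PPP1R15B were higher after OTX015 than after ARV-825, at 194 to 210 FPKM and 54.0 to 62 FPKM. Whether reads of the genes that appeared start at their own promoters cannot be read from gene totals and was not tested.

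TATAAA, searched on both strands of the same windows, occurred in 46 of 359 matched genes that rose at least 2-fold outside the histone clusters (12.8%). It occurred in 5.40% of 704 genes at least 2-fold lower, in 5.43% of all matched genes tested and in 12% of all genes of the RefSeq table. Some of the genes that rose passed the filter only through their level after a drug, MYH15 among them (0.241 FPKM on average in control and 4.41 FPKM after ARV-825), so they are not matched in control level to the other sets. Shown with the letters in capitals are the 4 largest rises among genes with them on their own strand, by the same rule of position and chromosome.
MT2A: tctttctagcTATAAAcactgcttgc
MYH15: tccaattttgTATAAAtttgagacat
RC3H1: acaaatgtggTATAAAaagttgtgga
HEXIM1: aaagcttctaTATAAAaggggcgcag
They lie at chr16:56608545-56608570 (plus strand), chr3:108510726-108510751 (minus), chr1:173993219-173993244 (minus) and chr17:45148436-45148461 (plus) of GRCh38.p14. The letters begin 29 bases before the start in MT2A and HEXIM1, and 145 and 162 bases before it in MYH15 and RC3H1. MT2A, a metallothionein, had 15.8, 14.3 and 13.9 FPKM in control and 75.1, 70.2 and 82.6 FPKM after ARV-825. RC3H1, encoding the mRNA decay protein roquin, had 5.89 to 6.58 FPKM against 25 to 35.0 FPKM.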
